A study of Mus musculus with 12 samples.

Results

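Klhdc2, Oxct1, Gnb1, Nnt, Casc4 and Oxsr1 are 6 of the 45669 genes counted in CD4+ T cells with a mutated Ras activator, and they were picked for having fewer ribosome footprints in the mutant than in the wild type. Klhdc2, Oxct1, Gnb1 and Nnt held places 1 to 4 when genes were ordered by p on the lower side of the footprint comparison. Gnb1, Casc4, Oxsr1 and Oxct1 held places 1, 2, 4 and 5 on the lower side of the comparison of footprints relative to total RNA. The genes were thus chosen by their footprint differences between genotypes, which are given below as a description with no test. For Klhdc2 and Nnt the total RNA did not enter the choice. For the other 4 it did, through the ratio.

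The cells were CD4+ T cells from lymph nodes of 12-week-old C57BL6 mice, purified by negative isolation with beads. WT mice carried normal copies of Rasgrp1 and Anaef mice were homozygous for the Anaef allele of Rasgrp1, with no other allele named in the labels. Total RNA was sequenced from 20000 cells per library, in 4 libraries per genotype, numbered 1 to 4 for WT and 5 to 8 for Anaef. Footprints, called ribosome-protected fragments (RPF) in the labels, are what remains of an mRNA under each ribosome once nuclease has cut away the rest. They were read in 2 pools per genotype, WT 1B and 2B and, for Anaef, 3B and 4B, each pool holding 2 samples, after 1 minute in cycloheximide, a drug that holds ribosomes on the mRNA. No library was stimulated. How animals were assigned to pools is not stated, so a p-value here covers only the variation among these libraries, which may be technical.

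Rasgrp1 turns on Ras downstream of the T cell receptor by exchanging its GDP for GTP, and the weak signals that resting T cells receive in this way reach mTORC1, a kinase that controls how readily mRNAs are translated. The mRNAs best known to follow mTORC1 begin with a 5' terminal oligopyrimidine tract, a C followed by further C or T bases. The 6 genes belong to different pathways. They encode a ubiquitin ligase receptor (Klhdc2), a G protein subunit (Gnb1), a stress kinase (Oxsr1), a pair of mitochondrial enzymes (Oxct1 and Nnt) and a Golgi membrane protein (Casc4).

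The starts of the mRNAs are shown because the pyrimidine tract would lie there. RefSeq promoters of GRCm38.p6 matched 5 of the 6 genes. Each line runs 5' to 3' on the gene's strand, with 10 bases before the annotated start and 20 from it onwards, and capitals mark the first 5 transcribed bases. They lie at chr12:69296671-69296700 (+) for Klhdc2, chr4:155491351-155491380 (+) for Gnb1, chr15:4026418-4026447 (+) for Oxct1, chr9:119322408-119322437 (-) for Oxsr1 and chr2:121866960-121866989 (+) for Casc4, which RefSeq calls Golm2.
Klhdc2: ggagcgtgggGACAGtgtccgctgcggacg
Gnb1: gaggctgcggGCAGGggccgccgcgcccat
Oxct1: cgccccctccAGCCTgagtgcagcgcccgc
Oxsr1: agcgcgctgcGTGTCggcaggtggagggag
Casc4: ggcatcgggtCGCGAgtaccagcgccggct
None of the 5 sequences began with C followed by 4 bases that were each C or T, read on the transcribed strand. In Oxct1 a run of C and T that begins with C ends directly before the RefSeq start. The GENCODE gene begins further upstream, at 4026383, so by that annotation the run lies within the gene. Whether transcription starts in the run was not tested. Of 32851 RefSeq promoters 2.51% did. Of 63 ribosomal protein genes, the classic carriers of the tract, only 12 (19.0%) did, so many tracts do not stand at the annotated start.

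The start codons of 5 members are shown next because the bases around them take part in how well a scanning ribosome recognises the ATG. Each line holds 12 bases before the ATG, the ATG in capitals and the bases after it, from the GENCODE M21 transcript of GRCm38.
Klhdc2: tgcagcctcaagATGgctgatggcaacgag
Oxct1: ccggggccgaagATGgcggctctcaaactc
Nnt: gcataaagcagcATGgcgcacctactgaag
Oxsr1: gctgcagccgtcATGtccgaggactcgagc
Casc4: gccaccggcctcATGgtgggtttcggggcc
Of the 5 shown, Klhdc2, Oxct1 and Nnt held a purine 3 bases before the ATG together with a G directly after it. This pairing occurred in 47.6% of 8697 genes in the RPF fit whose start codon could be read. A purine 3 bases before the ATG stood in 4 of the 5 genes shown, all but Casc4, against 87.0% of those genes. The sixth member is not reported here, so no share over all the members is given.

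Library totals ranged from 15326842 to 40046317 counts in total RNA, from 4044330 to 7009342 in the WT pools and from 2868943 to 3464868 in the Anaef pools. Rasgrp1 itself gave 149.7 and 172.9 CPM in the WT pools against 123.6 and 104.3 in the Anaef pools, and 452.6 to 609.8 CPM in WT total RNA against 459.8 to 683.2 in Anaef. CPM are counts scaled to a common library total after TMM normalization, and a difference in level between the groups does not check a point-mutant allele. The 10 CD4 T cell markers summed to 2976 to 3298 CPM in WT total RNA and 3321 to 5062 in Anaef, and to 7063 to 8060 and 7667 to 8091 in the WT and Anaef pools, with none at 0. In total RNA all 10 were higher in Anaef, with a median log2 difference, Anaef minus WT, of 0.33. In RPF 5 were lower and 5 higher. In footprints relative to total RNA all 10 were lower in Anaef, with a median of -0.22. Over all genes 9068 of 17876 were higher in total RNA and 9326 of 19031 lower in the ratio. Immunoglobulin genes took 8.09% and 3.17% of counts in WT pools 1B and 2B, and 2.54% and 0.79% in Anaef pools 3B and 4B. In bulk samples, fewer cells of a type and less RNA per cell cannot be told apart.

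In the RPF comparison edgeR's quasi-likelihood test called 0.0% of 9710 genes at an adjusted p under 0.05, and 1151 genes had an unadjusted p under 0.05. DESeq2 called 207 and limma-voom 0. Leaving out Anaef pool 3B gave 211 calls, leaving out Anaef pool 4B gave 14, leaving out WT pool 2B gave 1 and leaving out WT pool 1B gave 0. With no filter on low counts 514 were called. Both Anaef pools lay below both WT pools in 22.5% of those genes, which is the background for the non-overlapping footprints of the 6 genes.

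Klhdc2 (ENSMUSG00000020978, chr12:69296681-69310687, plus strand) encodes a kelch-domain receptor through which the CUL2 ubiquitin ligase finds proteins by their C-terminal ends. Its RPF level was 65.1 and 58.5 CPM in WT pools 1B and 2B, and 20.9 and 19.5 CPM in Anaef pools 3B and 4B. The pools of each genotype lay close together and far from the other genotype. These levels rest on 682 counts in WT and 129 in Anaef. The summed WT level was 3.08-fold the Anaef level (95% exact counting interval 2.55 to 3.75), and the log2 difference, Anaef minus WT, was -1.61 (SE 0.18). The labels name no molecular identifiers that would mark copies of a molecule, so such intervals cover counting error only.

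Total RNA of Klhdc2 showed no such gap. It was 74.96, 74.4, 46.4 and 83.9 CPM in WT replicates 1 to 4 and 39.4, 98.1, 67.0 and 43.1 CPM in Anaef replicates 5 to 8. The highest and the lowest of the 8 libraries were both Anaef, so the groups overlapped fully. The log2 difference in total RNA was -0.18 (SE 0.30, edgeR adjusted p = 0.985), in a comparison that called 0.0224% of 17876 genes. DESeq2 called 120 genes there and limma-voom 2, and leaving out a library gave 0 (Anaef 5, 7 or 8), 1 (WT 2), 2 (WT 1, WT 4 or Anaef 6) or 3 (WT 3).

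Gnb1 (ENSMUSG00000029064, chr4:155491361-155559269, plus strand) encodes a beta subunit of heterotrimeric G proteins, which couple receptors such as the chemokine receptors of lymph node T cells to effectors inside the cell. RPF gave 83.4 and 98.8 CPM in the WT pools and 34.98 and 38.0 CPM in the Anaef pools, from 972 and 231 counts. The WT pools spread more than those of Klhdc2, and both Anaef pools lay far below them. The summed WT level was 2.45-fold the Anaef level (counting interval 2.12 to 2.85), a log2 difference of -1.32 (SE 0.18).

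Total RNA of Gnb1 leaned the other way. It was 95.6, 92.1, 73.3 and 99.3 CPM in WT and 112.0, 112.3, 97.8 and 102.3 CPM in Anaef. Of the Anaef libraries, 3 lay above the highest WT library, and replicate 7 lay between WT replicates 1 and 4. The log2 difference was 0.24 (SE 0.14).

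Oxsr1 (ENSMUSG00000036737, chr9:119238432-119322427, minus strand) encodes the kinase OSR1, which WNK kinases switch on when cell volume or chloride changes and which then phosphorylates cation-chloride cotransporters. It had few footprints in every pool, 2.66 and 4.37 CPM in WT and 0.57 and 1.05 CPM in Anaef. These are 36 counts in WT (18 and 18) and 5 counts in Anaef (2 and 3). The summed WT level was 4.20-fold the Anaef level, and the counting interval was wide, 1.64 to 13.7. Oxsr1 did not reach the count filter of the fit on the RPF libraries alone. Fitted with all 12 libraries, its RPF log2 difference was -2.12 (SE 0.52).

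Oxsr1 was well represented in total RNA all the same, with 41.6, 35.04, 26.4 and 47.5 CPM in WT and 63.0, 47.9, 63.7 and 47.5 CPM in Anaef. The lowest Anaef library and the highest WT library were at nearly the same level, and the other 3 Anaef libraries lay above every WT library. The log2 difference was 0.56 (SE 0.21). Higher total RNA therefore stood beside lower footprints in the ratio that chose this gene.

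Oxct1 (ENSMUSG00000022186, chr15:4026383-4155344, plus strand) encodes succinyl-CoA:3-oxoacid CoA transferase, the mitochondrial enzyme that activates acetoacetate so that ketone bodies can be burnt. Its RPF level was 115.0 and 114.8 CPM in the WT pools against 48.7 and 48.1 CPM in the Anaef pools. The replicate pools differed by under 1 CPM within each genotype, the tightest agreement among the 6 genes relative to level. From 1252 and 308 counts, the WT level was 2.37-fold the Anaef level (counting interval 2.09 to 2.69), a log2 difference of -1.25 (SE 0.15).

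In total RNA Oxct1 gave 60.3, 72.8, 91.5 and 64.1 CPM in WT and 66.0, 90.4, 74.8 and 82.4 CPM in Anaef. WT replicate 3 was the highest of all 8 and WT replicate 1 the lowest, so the Anaef libraries lay inside the WT range. The log2 difference was 0.12 (SE 0.17).

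Nnt (ENSMUSG00000025453, chr13:119335448-119408997, minus strand) encodes nicotinamide nucleotide transhydrogenase, which uses the proton gradient of the inner mitochondrial membrane to make NADPH. RPF gave 42.5 and 43.2 CPM in WT and 12.6 and 17.1 CPM in Anaef, from 466 and 93 counts. The WT pools were nearly equal and the Anaef pools were further apart. The WT level was 2.92-fold the Anaef level (counting interval 2.34 to 3.69), a log2 difference of -1.54 (SE 0.22).

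Nnt was the only member whose total RNA groups did not overlap. Total RNA was 19.8, 16.4, 15.03 and 14.7 CPM in WT and 12.4, 14.4, 13.1 and 11.8 CPM in Anaef. Every Anaef library lay below every WT library, although the highest Anaef library was close to the lowest WT libraries. The share of all genes whose total RNA separated in this way is not given here, so the separation is only a description. The log2 difference was -0.35 (SE 0.21, edgeR adjusted p = 0.916), so it did not pass the test. The substrain C57BL/6J, whose genome is the mouse reference, is known to carry a deletion of exons in Nnt. The labels give C57BL6 without a substrain, and counts per exon were not analysed here. The Nnt transcript used here is annotated on that reference, so its lengths and its levels per kilobase hold for the reference form only.

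Casc4 (ENSMUSG00000060227, chr2:121866970-121936220, plus strand) encodes a single-pass membrane protein of the Golgi related to Golm1. Its footprints were sparse, at 4.13 and 3.88 CPM in WT and 0.86 and 0.35 CPM in Anaef. These are 44 counts in WT (28 and 16) and 4 in Anaef (3 and 1). The WT level was 6.42-fold the Anaef level, with a counting interval of 2.34 to 24.6, and the log2 difference was -2.63 (SE 0.59).

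Total RNA of Casc4 was steady across genotypes. It was 13.1, 10.6, 12.2 and 13.6 CPM in WT and 9.88, 14.3, 12.1 and 11.6 CPM in Anaef. The groups overlapped almost completely, and the log2 difference was -0.05 (SE 0.22).

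**Figure D1:**
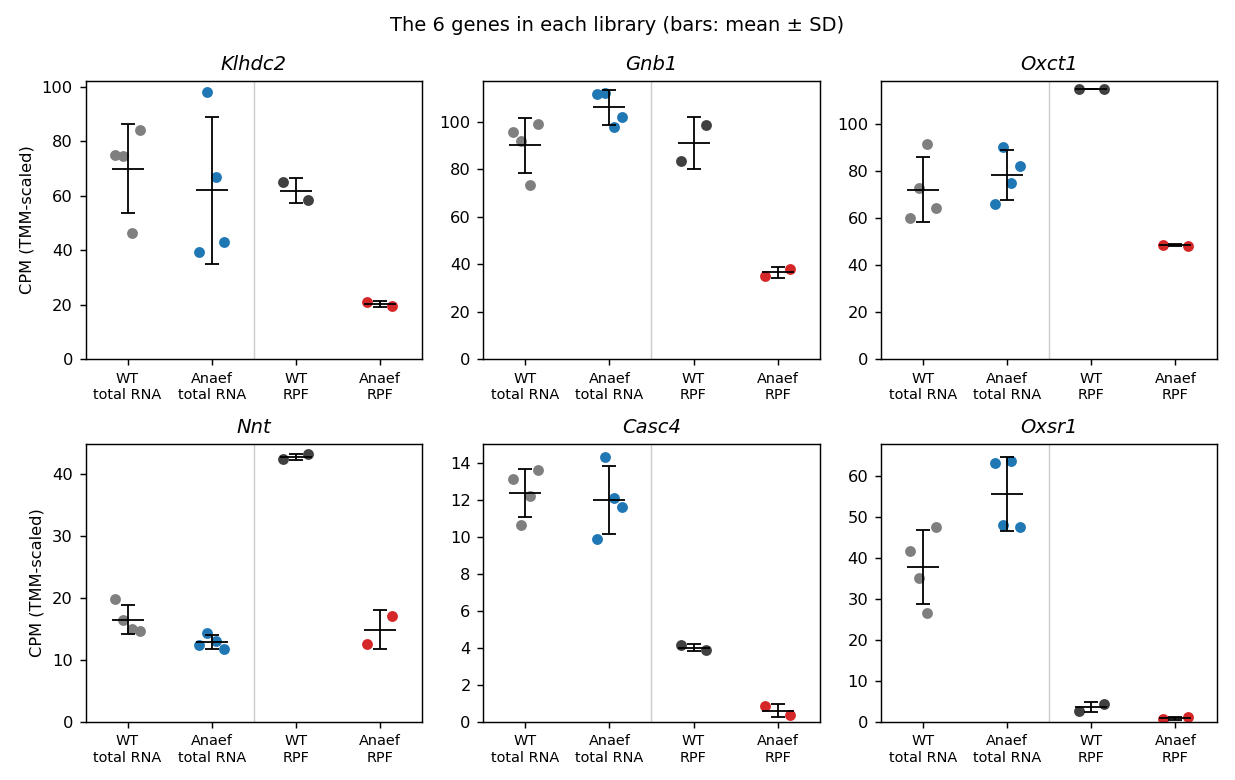
CPM on the TMM-scaled library size (vertical axis, from 0, a scale of its own in each panel) of the 6 genes in every library. Points are libraries or pools, bars are mean ± SD (n = 4 for total RNA, n = 2 for RPF), and in every panel both Anaef RPF points lie below both WT RPF points while the total RNA points of the genotypes overlap for all genes but Nnt.

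Set per length, the genes did not keep the same order in both assays. In WT pools the mean RPF level per kilobase of coding sequence was 89.3 CPM for Gnb1, 73.7 for Oxct1, 50.7 for Klhdc2, 17.1 for Nnt, 3.07 for Casc4 and 2.22 for Oxsr1. In Anaef pools it was 35.8, 31.1, 16.6, 5.93, 0.46 and 0.51. The last 2 values rest on 4 and 5 counts and their order cannot be read. In WT total RNA the mean per kilobase of transcript was 36.7 CPM for Klhdc2, 28.7 for Gnb1, 20.5 for Oxct1, 8.10 for Oxsr1, 4.76 for Nnt and 2.94 for Casc4. Oxsr1 thus stood above Nnt in mRNA and below it in footprints.

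Footprints relative to total RNA were compared as the interaction of genotype and assay. For Gnb1, Oxsr1, Oxct1 and Casc4 this measure chose the genes, and for Klhdc2 and Nnt it shares the RPF libraries that chose them, so none of the values is a test. The log2 difference of the ratio was -2.68 (SE 0.56) for Oxsr1, -2.63 (SE 0.52) for Casc4, -1.57 (SE 0.24) for Gnb1, -1.45 (SE 0.50) for Klhdc2, -1.37 (SE 0.30) for Oxct1 and -1.19 (SE 0.33) for Nnt. Klhdc2, first by p on the RPF side, was 98th on the lower side here, and its SE was wider with the spread of its total RNA. Nnt was 30th. Of 19031 genes 0.0% were called at an adjusted p under 0.05, and 636 had an unadjusted p under 0.05. DESeq2 called 10 and limma-voom 0.

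**Figure D2:**
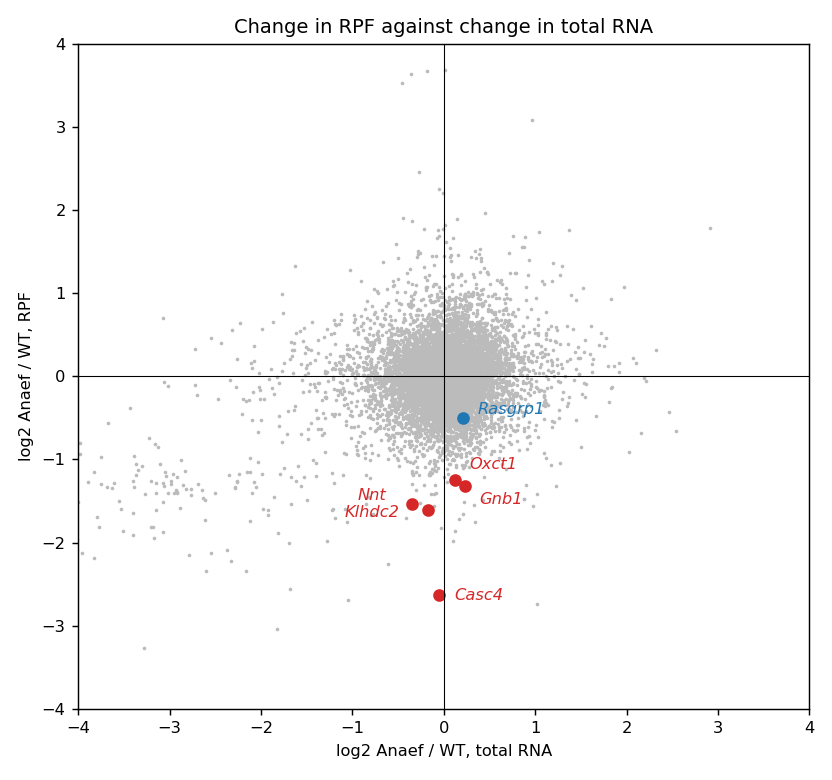
Log2 Anaef over WT in RPF (vertical) against the same in total RNA (horizontal), a point for each of 9487 genes in both fits, with 44 outside the axes. Members are red and Rasgrp1 is blue, Oxsr1 is missing because it was not in the RPF fit, and the 5 members sit between -1.25 and -2.63 in RPF and between -0.35 and 0.24 in total RNA.

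The 5th place bounded the selection. On the RPF side it was held by Ighv1-49, an immunoglobulin variable segment that is not among the 6, with a log2 difference of -2.43. The gene in the 6th place is a predicted transcript at -1.27. On the ratio side Oxct1 held the 5th place at -1.37 and Cyb5r4, a cytochrome b5 reductase, the 6th at -1.33. Tcf7, which encodes the transcription factor TCF-1, held the 3rd place at -0.95 and is not a member. Casc4 was 60th by p on the RPF side because its few counts gave a wide error. The order by p is not an order by size. Among 6046 genes with at least 200 WT footprint counts, the log2 difference of Klhdc2 was the 65th lowest, that of Nnt the 72nd, that of Gnb1 the 116th and that of Oxct1 the 141st.

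How densely each mRNA was covered by footprints was described by the ratio of mean RPF CPM to mean total RNA CPM within a genotype. All 4 RPF pools entered the choice of the genes, so these ratios carry the selection and are given with no test. The assays used different library kits and each was scaled to its own total, so the ratios are relative and hold no absolute ribosome number. Over 9487 genes in both fits the WT ratio had a median of 1.82 and quartiles of 0.79 and 3.92, and the Anaef ratio a median of 1.75 and quartiles of 0.73 and 4.10.

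In WT the ratio was 2.60 for Nnt, above that median. It was 1.59 for Oxct1, 1.01 for Gnb1 and 0.88 for Klhdc2, all between the lower quartile and the median. Casc4 at 0.32 and Oxsr1 at 0.093 lay below the lower quartile already in WT. In Anaef the ratio was 1.15 for Nnt, 0.62 for Oxct1, 0.34 for Gnb1, 0.33 for Klhdc2, 0.051 for Casc4 and 0.015 for Oxsr1. Every member was lower in Anaef by this measure, which follows from the selection. Averaged over both genotypes in the fit, the log2 ratio of RPF to total RNA was -5.52 for Oxsr1, -3.67 for Casc4, -1.64 for Klhdc2, -1.50 for Gnb1, -0.76 for Oxct1 and 0.05 for Nnt. These averages contain the low Anaef pools that chose the genes. The fit scaled all 12 libraries together, so its values are not on the scale of the plain ratios. On the scale of the fit the median was -1.87 over 19031 genes and 0.13 over the 9710 also in the RPF fit.

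The nearest relatives of the members were read beside them, and the differences between a member and its relative were not tested. Klhdc1, the neighbour of Klhdc2 on chromosome 12 with 64.1% of aligned coding bases identical, gave 6.20 and 7.77 CPM in the WT pools and 8.32 and 9.77 CPM in the Anaef pools. Both Anaef pools lay above both WT pools, the opposite of Klhdc2, and the log2 difference was 0.38 (SE 0.33, edgeR adjusted p = 0.686). The share of all genes with pools separated in that direction is not given here. Its total RNA was 43.1 ± 4.00 CPM in WT and 32.6 ± 7.48 in Anaef (SD, n = 4 each). Klhdc3, a further C-degron receptor, gave 10.5 and 14.6 CPM in WT RPF and 10.0 and 10.5 in Anaef RPF, with almost no gap between the genotypes.

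Gnb2, the beta subunit with 76.96% identity to Gnb1, was read very differently by the assays. Its RPF level was 139.5 and 156.8 CPM in WT and 90.6 and 111.0 in Anaef, while its total RNA was only 2.48 to 9.10 CPM in WT and 1.82 to 5.16 in Anaef. Its log2 ratio of RPF to total RNA was 4.08 (SE 0.33, edgeR adjusted p = 2.13e-07), in a contrast of assays over both genotypes that called 57.6% of 19031 genes lower and 20.7% higher in RPF. In WT the plain ratio, which is on another scale than the fit, was 28.8 for Gnb2 and 1.01 for Gnb1. Its RPF log2 difference between genotypes was -0.56 (SE 0.17, adjusted p = 0.344), in the same direction as Gnb1 and smaller in size. Gnb4, with 77.3% identity, had 4 footprint counts in WT and 3 in Anaef, too few to compare. Gnb5 had 25 and 6. Total RNA of Gnb4 was 7.76 ± 2.24 CPM in WT and 15.1 ± 4.90 in Anaef (SD, n = 4 each). The log2 difference was 0.96 (SE 0.31, edgeR adjusted p = 0.778).

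Golm1, the relative of Casc4 with 62.4% identity, gave 26.9 and 27.7 CPM in WT RPF and 22.4 and 24.4 in Anaef RPF, a log2 difference of -0.22 (SE 0.19, adjusted p = 0.686). Stk39, the relative of Oxsr1 that encodes the kinase SPAK and shares 75.4% of aligned coding bases, gave 32.9 and 18.9 CPM in WT and 22.7 and 23.4 in Anaef. The Anaef pools lay between the WT pools. In WT, Stk39 had 15.5 CPM of RPF per kilobase of coding sequence against 2.22 for Oxsr1, and 5.75 CPM of total RNA per kilobase of transcript against 8.10. Oxct2a and Oxct2b, the testis relatives of Oxct1, had no counts in any of the 12 libraries.

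**Figure D3:**
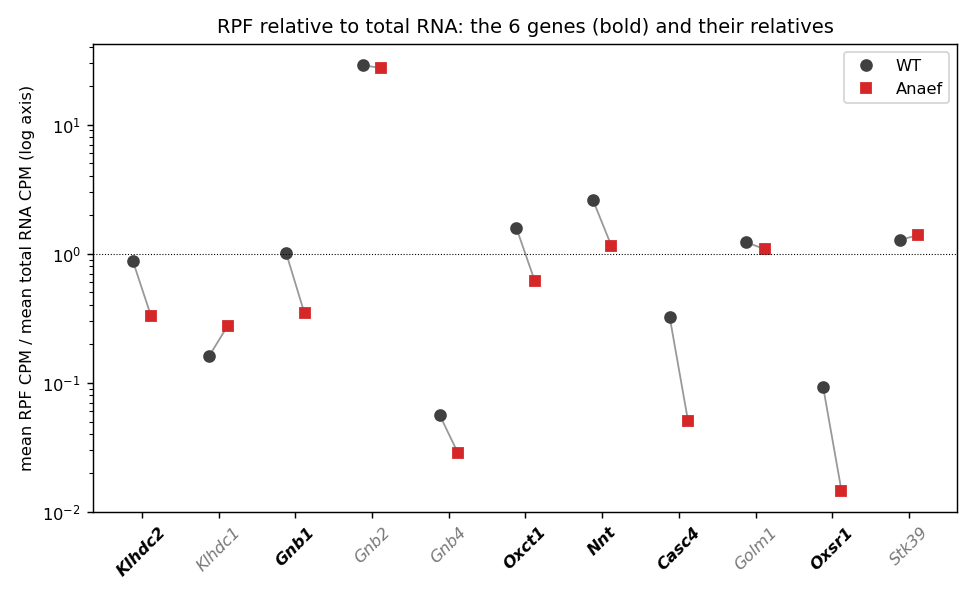
Mean RPF CPM divided by mean total RNA CPM (vertical, log axis) in WT (circles) and Anaef (squares) for the 6 genes (bold) and 5 relatives (grey); each point is a ratio of 2 group means and has no error bar. The members drop from WT to Anaef, as chosen, Gnb2 stays near 28, and Klhdc1 and Stk39 lie higher in Anaef.

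For each member, a list of genes of its pathway was counted. In RPF, 6.93% of genes were lower and 4.92% higher in Anaef at an unadjusted p under 0.05 (edgeR), and the median log2 difference over all genes was 0.01. In total RNA 2.89% were lower and 2.73% higher, and in the ratio 1.76% and 1.59%. No member of the lists passed an adjusted p of 0.05 in any of these 3 comparisons, so the values below describe genes that did not pass the test. Genes counted at an unadjusted p in RPF or in the ratio are named whether or not they are abundant, and were then chosen after their values were seen. Those counted in total RNA are given as counts only.

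Of the CUL2 C-degron ligase list, the receptors and adaptors that work like or with Klhdc2, 13 of 16 genes were tested in RPF. At an unadjusted p under 0.05, 1 was lower (Zer1) and 2 were higher (the adaptors Elob and Eloc), and the median was -0.14. Zer1, a receptor for N-terminal glycine, had 93.3 ± 5.68 CPM in WT RPF and 70.3 ± 6.16 in Anaef RPF (SD, n = 2 each). Eloc, which links receptors to CUL2, had 45.9 ± 4.83 and 72.4 ± 6.67. The other abundant receptors Zyg11b, Appbp2 and Fem1b had log2 differences of -0.41, -0.09 and -0.14. In total RNA 0 of 15 were lower and 1 higher, and in the ratio 0 and 0.

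Of 27 heterotrimeric G protein genes matched, 10 were tested in RPF beside Gnb1. At an unadjusted p under 0.05, 3 were lower (Gnai2, Gnb2 and Gna12) and 2 higher (Gng2 and Gng5), and the median was -0.24. Gnai2, the inhibitory alpha subunit through which chemokine receptors act, had 240.4 ± 2.45 CPM in WT RPF and 164.0 ± 20.7 in Anaef RPF, a log2 difference of -0.55 (SE 0.15). Gng2, a gamma subunit that pairs with beta subunits, had 23.4 ± 0.92 and 44.7 ± 2.95, a log2 difference of 0.93 (SE 0.18). Gnb1 and Gng2, whose proteins can join in a stable dimer, lay on opposite sides. Gnai3 and Gna13 had -0.20 and -0.28, and Gnas 0.50. In total RNA 0 of 18 were lower and 2 higher, and in the ratio 0 and 0 of 20.

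Of 14 ketone body genes, 8 were tested in RPF beside Oxct1. At an unadjusted p under 0.05, 1 was lower, the monocarboxylate transporter family gene Slc16a6, with 7.73 ± 2.01 CPM in WT and 3.75 ± 0.37 in Anaef, and none was higher. The median was -0.13. Acat1, the thiolase that takes the next step after Oxct1, had 88.0 ± 2.15 CPM in WT RPF and 76.8 ± 4.96 in Anaef RPF, a log2 difference of -0.20 (SE 0.16). Acat2 had 0.07 and the carnitine carrier Slc25a20 -0.31. In total RNA 1 of 8 was lower and 0 higher, and in the ratio 0 and 0.

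Of 20 genes of mitochondrial NADPH and redox, 17 were tested in RPF beside Nnt, with 3 lower (Glud1, Me2 and Nadk2) and 1 higher (Gpx4) at an unadjusted p under 0.05 and a median of -0.06. Glud1, glutamate dehydrogenase, had 257.2 ± 32.0 CPM in WT RPF and 155.5 ± 6.59 in Anaef RPF, a log2 difference of -0.73 (SE 0.15). Me2, the mitochondrial malic enzyme, had 160.0 ± 11.7 and 100.1 ± 0.044, a log2 difference of -0.68 (SE 0.15). Both were almost level in total RNA, at 0.03 and -0.02, and they were the 2 genes of the list that were lower in the ratio, at -0.77 and -0.66. Gpx4, which reduces lipid peroxides, had 59.1 ± 0.80 and 92.7 ± 27.7, and Shmt2 and Glrx2 had log2 differences of -0.14 and 0.63. In total RNA 1 of 20 was lower and 0 higher, and in the ratio 2 of 20 were lower and 0 higher.

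All 22 Golgi membrane genes were tested in RPF, with 1 lower and 0 higher at an unadjusted p under 0.05. On the lower side were 16 of 22, beside 4773 of 9710 over all genes, and the median was -0.15. The lower gene was Gopc, a Golgi PDZ protein, with 42.3 ± 11.8 CPM in WT RPF and 21.3 ± 0.94 in Anaef RPF and a log2 difference of -0.999 (SE 0.24). It was also the 1 gene lower in the ratio, at -1.04 (SE 0.43). B4galt1, Golga4, Golgb1 and Gosr2 had RPF log2 differences of -0.41, 0.10, 0.23 and -0.49. In total RNA 0 were lower and 0 higher.

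Of 23 WNK-OSR1 genes matched, 16 were tested in RPF, with 1 lower (Cab39) and 2 higher (Wnk1 and Slc12a9) at an unadjusted p under 0.05 and a median of -0.01. Cab39 encodes MO25, the scaffold that activates OSR1 and SPAK. It had 128.2 and 106.6 CPM in the WT pools and 51.3 and 60.4 in the Anaef pools, a log2 difference of -1.07 (SE 0.18), with 59.9 ± 12.1 CPM in WT total RNA and 56.0 ± 11.9 in Anaef (SD, n = 4 each). Its total RNA libraries overlapped and its pools did not. Of the 16 genes tested, both Anaef pools lay below both WT pools in 4 and above them in 4. Over all genes tested in RPF, both Anaef pools lay lower in 22.5%. The share lying higher is not given here, so the count above has no background. Wnk1, the upstream kinase, had 316.2 ± 11.8 CPM in WT RPF and 409.1 ± 4.64 in Anaef RPF, a log2 difference of 0.37 (SE 0.13). The cotransporter Slc12a7, the ligase scaffold Cul3 and Nrbp1 had 0.08, -0.24 and -0.10. In total RNA 0 of 20 were lower and 1 higher, and in the ratio 1 of 21 was lower (Cab39) and 0 higher.

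**Figure D4:**
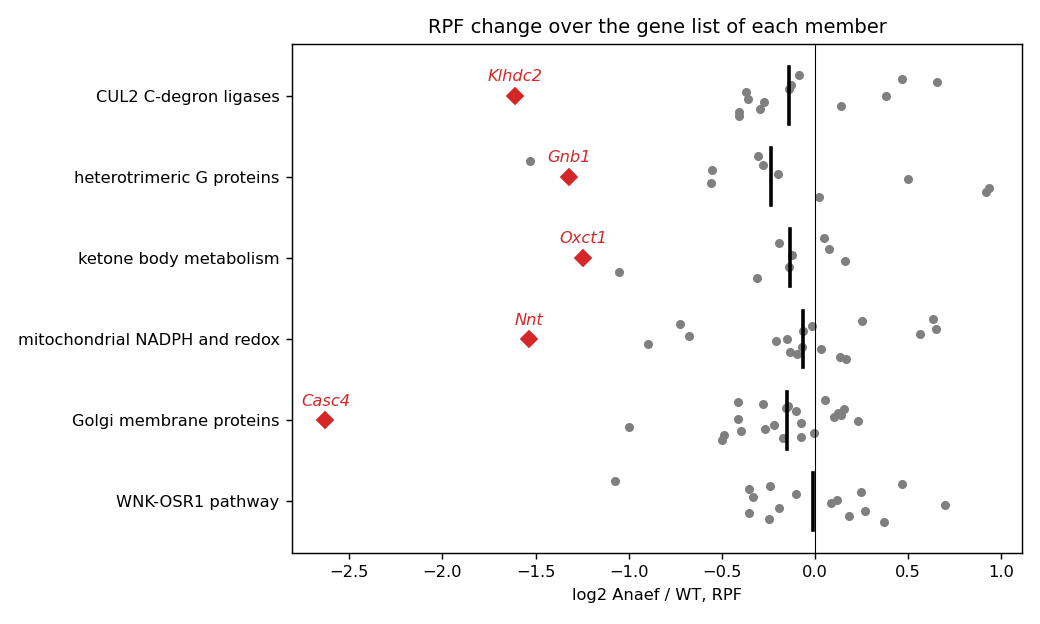
RPF log2 Anaef over WT (horizontal) for the tested genes of each pathway list (grey points, spread vertically only for legibility), the list median (black bar) and the member the list belongs to (red diamond; Oxsr1 was not in the RPF fit). The medians lie between -0.24 and -0.01 and the members between -1.25 and -2.63, by choice, with Gna12 at -1.53 the lowest of the other genes.

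The genes whose levels moved most like each member were ranked by Pearson r over the 12 libraries, on log2 CPM centred within each assay, among 6836 other genes (6837 for Casc4 and Oxsr1) with a mean of at least 50 counts in both assays. These libraries share genotype and depth differences, so r is a description. Klhdc2 went most with Pitpnc1 (r = 0.93), Tm9sf3 (0.92) and Etnk1 (0.92), and Oxct1 with Me2 (0.93), Ppp4r2 (0.92) and Ppp1cc (0.90). Gnb1 went with Vps26b (0.92), Lrrc1 (0.89) and Lef1 (0.89), and Nnt with Pafah1b1 (0.91), Me2 (0.89) and Prpsap2 (0.88). Casc4 went with Golph3 (0.95) and Pak2 (0.94), and Oxsr1 with Gnb1 (0.94), Vps26b (0.87) and Cnga1 (0.86). Me2 stood beside both mitochondrial members, but by Spearman correlation it was 4th for Oxct1 and 30th for Nnt. Genes with predicted names were passed over. Among the rest Gnb1 was the closest to Oxsr1 by r, and by Spearman correlation it was 2nd. Gnb1 and Oxsr1 were both chosen with the same RPF pools.

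Among the members themselves r over the 12 libraries ran from 0.62 (Oxsr1 and Klhdc2) to 0.94 (Oxsr1 and Gnb1), which contains the RPF gap that chose them. Over the 8 total RNA libraries alone it ran from -0.60 (Oxsr1 and Nnt) to 0.80 (Oxsr1 and Gnb1), so in total RNA the 6 did not move as a set.

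The structure of the mRNAs was set against 9017 genes of the RPF fit with an annotated coding transcript, most often within the usual range. Coding lengths ran from 1020 bases (Gnb1) to 2505 (Nnt), around a median of 1395. Coding GC ran from 46.6% (Klhdc2) to 52.2% (Nnt), and none of the 6 lay above the median of 52.2%. The 5' UTR was longer than the median of 156 bases in 5 of the 6, from 235 in Casc4 to 389 in Oxct1, and 147 in Nnt. An upstream ATG was present in the 5' UTR of Oxct1 (1) and Gnb1 (2) and in none of the other 4. The 3' UTR ranged from 411 bases in Klhdc2 to 2710 in Oxsr1 around a median of 924. Over all these genes the RPF log2 difference followed 3' UTR length with a Spearman correlation of -0.14 and coding GC with 0.07, across genes that are not independent.

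Reads of some members cannot be told from those of other genes, since whether the counting used strand is not stated. At the 50-base read length 6.30% of windows along Klhdc2 lie in the convergent gene Nemf, and 12.0% along Oxct1 lie in BC037032, a noncoding antisense transcript over its first exon. Of 28-base windows in the coding part, about the size of a footprint, none of Klhdc2, Nnt or Oxsr1 occurs in another gene. For Oxct1 3.39% do, for Gnb1 2.22%, chiefly in the pseudogene Gnb1-ps2, and for Casc4 0.55%.

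Casc4 lies 4.52 Mb from Rasgrp1 (chr2:117279993-117343001) on the same chromosome, and the other 5 members are on other chromosomes. Within 5 Mb of Rasgrp1, 60 genes other than Rasgrp1 were tested in RPF. At an unadjusted p under 0.05, 2 were lower and 3 higher, where 6.93% and 4.92% of all genes were. The median was 0.03, beside Rasgrp1's own log2 difference of -0.50. The 2 lower genes were Casc4 and Snap23, a membrane fusion protein at -1.06 that is named after its value was seen. In total RNA 0 of 94 genes there were lower and 1 higher, where 2.89% and 2.73% of all genes were. In the ratio, which chose Casc4, 4 of 100 were lower and 2 higher, where 1.76% and 1.59% of all genes were. Casc4 had the lowest RPF value of the window. It was chosen for few Anaef footprints and rests on 4 Anaef counts, so this is no test.

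**Figure D5:**
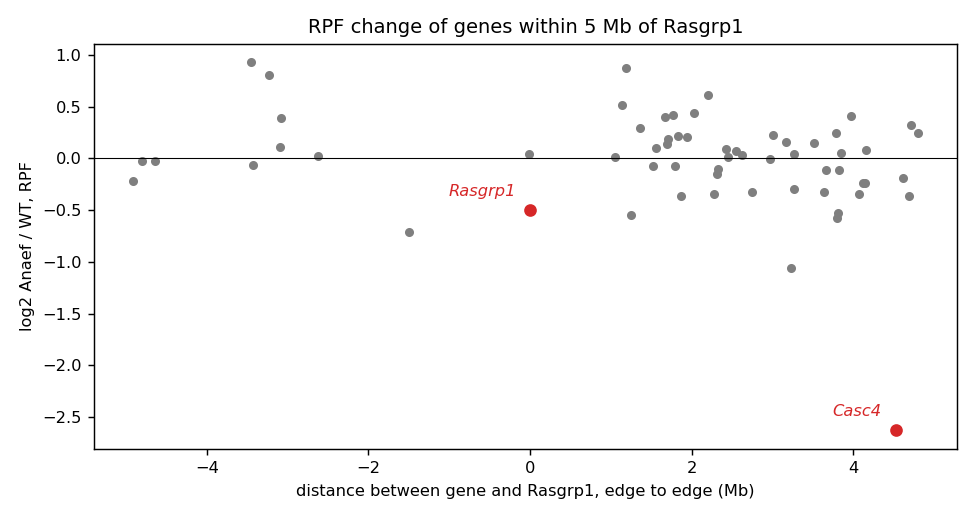
RPF log2 Anaef over WT (vertical) against the distance in Mb between the nearest ends of the gene and of Rasgrp1 (horizontal) for tested genes within 5 Mb. Casc4, at 4.52 Mb, lies at -2.63, by choice, and the median of the genes other than Rasgrp1 is 0.03.

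Markers of B and plasma cells were lower in Anaef in both assays, and the other cell types are given list by list. B cell markers (10 genes) summed to 50.7 to 92.3 CPM in the WT pools and 22.4 to 40.1 in the Anaef pools, and to 33.9 to 67.5 and 11.7 to 34.96 CPM in WT and Anaef total RNA. Plasma cell markers (8 genes) summed to 13144 to 33483 CPM in WT pools and 2969 to 8870 in Anaef pools, and to 1322 to 6111 and 408.2 to 805.9 in total RNA. All 5 B cell and all 7 plasma cell markers tested in RPF were lower in Anaef, 4 and 6 of them at an unadjusted p under 0.05, and no marker of either list was at 0 in any group. CD8 T cell markers summed to 119.0 to 163.4 CPM in WT pools and 105.0 to 117.9 in Anaef pools, with 20.9 to 26.9 and 18.9 to 31.9 in total RNA. All 4 tested in RPF were lower in Anaef, where 4773 of 9710 genes were, and in total RNA 3 were lower and 2 higher. None of those tested had an unadjusted p under 0.05 in either assay. Myeloid markers summed to 91.1 to 99.5 and 98.1 to 120.4 CPM in the pools and to 27.5 to 38.7 and 15.3 to 29.7 in total RNA, where 5 of 6 tested were lower in Anaef with a median log2 difference of -0.75. Over all genes 8808 of 17876 were lower in total RNA. Erythroid markers summed to 11.4 to 15.4 CPM in WT pools and 2.29 to 8.37 in Anaef pools, and all 3 tested in RPF lay lower in both Anaef pools. In total RNA they summed to 0.022 to 6.33 in WT and at most 0.21 in Anaef, where Hbb-bs, Hba-a1 and Hba-a2 were at 0. The part of these cells in the members' footprints was not tested. With mitochondrial, immunoglobulin and T cell receptor genes left out, the RPF log2 differences were -1.62 for Klhdc2, -1.26 for Oxct1, -1.33 for Gnb1, -1.55 for Nnt and -2.64 for Casc4. Leaving out those genes does not change the counts of the members, so it cannot show what other cells contributed to them.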

How the data were processed

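The authors deposited unnormalized counts, of reads per gene in 8 total RNA libraries and of masked fragments per gene in 4 RPF pools. TopHat 1.4.1, Bowtie and the build GRCm38 are named in the submitters' processing notes. Not given in the sources used here were the counter, its annotation and strand setting, and the regions masked. Of 45669 rows 44595 matched GENCODE M21, which gave coordinates, transcripts and start codons. RefSeq GRCm38.p6 gave the mRNA starts.

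Genotypes were compared by edgeR 4.0.16, run in R 4.3.3 (quasi-likelihood F test, TMM scaling, filterByExpr, Benjamini-Hochberg adjustment over all genes at 0.05). Total RNA used its 8 libraries and RPF its 4. Differences in the ratio of RPF to total RNA came from a genotype-by-assay term fitted to 12 libraries, and the same fit gave the contrast of assays. The fitting code was tested on simulated data. Alternatives were DESeq2 1.42.0, limma-voom (limma 3.58.1), RLE size factors, other count filters, leaving out mitochondrial, Ig and TCR genes, 1 fit over all 12 libraries and leaving out each library. Removal of a coding length or GC trend (lowess, span 0.3) was chosen after seeing the data. Likeness used log2 CPM with a prior count of 2.

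The members and all gene lists were chosen with earlier results of these data known. Named were the members, Rasgrp1, the relatives, the genes beside the 5th place, the 3 genes most alike and, per list, the 4 genes with the highest mean total RNA CPM. Other list genes with an unadjusted p under 0.05 in RPF or the ratio were named after their values were seen. A few genes and sequences under these rules are not reported here.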

Additional observations from a re-analysis of the deposited data

Results flagged for a closer look

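In groups of 4 libraries, the gap of the highest or lowest library to its neighbour was compared with the range of the group for the 6 members and 11 further genes. Leaving out 4 groups with no counts in any library, 30 groups were checked, of which 2 held a library that stood apart, and chance flags about 1 in 20. Rasgrp1 had 609.8 CPM in WT total RNA replicate 3, against 452.6 to 479.1 CPM in the other WT libraries. Golm1, the relative of Casc4, had 11.2 CPM in Anaef total RNA replicate 5, against 23.7 to 25.8 CPM in the other Anaef libraries. No group of a member was among them, and groups of 2 pools could not be checked.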

How the results depend on the processing

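The RPF log2 differences of Klhdc2, Oxct1, Gnb1 and Nnt kept their sign in all 13 alternatives, that of Casc4 in all 12, and the ratio differences of all 6 in all 18. The members were chosen for low footprints in these same Anaef pools. The kept signs therefore follow from the selection and are no test. The widest ranges were those of Casc4, -3.47 to -2.20 in the ratio and -3.43 to -2.20 in RPF, which rest on 4 Anaef counts. The Nnt log2 ratio of RPF to total RNA turned from 0.05 to -0.062 without Anaef pool 4B, and with each library left out it lay between -0.062 and 0.126. The count of called genes moved far more than the members. In total RNA 4 genes were called, 120 with DESeq2, 2 with limma-voom, 0 without mitochondrial, Ig and TCR genes, and 0 to 3 with each library left out. In RPF 0 were called, 514 with no filter on low counts, 207 with DESeq2, 6 without mitochondrial, Ig and TCR genes, and 0 to 211 with each pool left out, the 211 without Anaef pool 3B, when the lone Anaef pool was assumed to vary like the WT pools. In the ratio 0 were called, 10 with DESeq2, and 0 to 1 with each library left out. The contrast of assays called 14913 genes, and 13912 to 15123 with each library left out. With 2 pools per genotype, depth and number limit what RPF can show, most of all for Casc4 and Oxsr1. No paired analysis was possible because the groups share no replicate numbers and the labels do not tie pools to animals. The cause of these changes was not tested.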
